A study of Mus musculus with 38 samples.

Results

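The 10 genes described here encode subunits of the transcription factor NF-κB and the proteins that hold it back or feed back on it. They are Nfkb1, Nfkb2, Rela, Relb, Nfkbia, Nfkbiz, Nfkbie, Tnfaip3, Bcl3 and Birc3, taken by gene symbol from a count table of 35682 genes, and all 10 were found. They were measured in 38 RNA libraries from the hearts of male C57BL/6 mice aged 8 to 12 weeks, each made from 2 pooled hearts. Sham mice received vehicle (5% DMSO in saline) for 6 weeks and had the chest opened without ischemia. Control-AMI mice received the same vehicle for 6 weeks and then 30 min of ischemia, by ligation of the left anterior descending coronary artery, followed by 2 h of reperfusion. EMPA–Pre-AMI mice received empagliflozin, an inhibitor of the sodium-glucose cotransporter SGLT2, at 10 mg/kg/d for 6 weeks before the same ischemia and reperfusion. Cardiomyocytes were isolated by digestion of the heart, endothelial cells (ECs) were sorted as CD45- CD31+ cells, and fibroblasts as CD45- CD31- CD90+ cells. Cardiomyocytes gave 13 libraries (4 Sham, 5 Control-AMI, 4 with empagliflozin), ECs 13 (4, 4 and 5) and fibroblasts 12 (4 in each group). The groups address how cells of the heart respond to acute myocardial infarction (AMI) and what pretreatment with empagliflozin changes.

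NF-κB is a family of dimers that wait in the cytoplasm, bound by inhibitors of the IκB family. Cytokine and Toll-like receptors activate a kinase complex that marks the inhibitor for destruction, and the dimer then enters the nucleus and switches on genes of inflammation and survival. Several of those genes encode the pathway's own brakes, so a rise in their mRNA is commonly read as a trace of recent activation; mRNA alone does not measure the activity of the dimers.

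Cardiomyocyte libraries held 2031716 to 4509284 counts, EC libraries 1352514 to 2195308 and fibroblast libraries 1946056 to 2821373. Transcripts of the mitochondrial genome took 46.6 to 66.01% of the cardiomyocyte counts, whereas their share was 4.52 to 14.6% for ECs and 3.48 to 12.5% for fibroblasts. Each marker sum was highest in the population it was named for. The sum of 8 cardiomyocyte genes such as Myh6 was 46420 to 109348 CPM (counts scaled to library size, here normalized over all libraries together) in cardiomyocytes and at most 863 CPM elsewhere. The sum of 8 endothelial genes such as Pecam1 and Cdh5 was 4275 to 9100 CPM in ECs, 1083 to 2479 CPM in cardiomyocytes and at most 438.7 CPM in fibroblasts. The sum of 8 fibroblast genes such as Col1a1 was 10494 to 16828 CPM in fibroblasts, 426.5 to 3905 CPM in cardiomyocytes and 338.9 to 4938 CPM in ECs. Control-AMI replicate 1 of the ECs held both the 4938 CPM of fibroblast genes and the 4275 CPM of endothelial genes. In that library the fibroblast sum was the larger. In these bulk libraries, fewer cells of a type and less RNA per cell cannot be told apart.

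The upstream DNA of 4 members is shown because it holds the letters that NF-κB dimers are known to bind, the κB motif, which was searched on both strands. RefSeq promoter windows, 250 bases before to 50 bases after a start site in build GRCm38.p6, were at hand for 7 of the 10 members, and 5 of those 7 held a match, as did 1388 of 27025 genes with a window (5.14%). A gene can have several windows: 7 of the 10 windows of the members held a match, and 1480 of all 32851 windows (4.51%). A match is a description of the letters and not of binding. The lines give the last 130 bases before the start site, read 5′ to 3′ along the strand of the gene, with matches on either strand in capitals.
Nfkbia: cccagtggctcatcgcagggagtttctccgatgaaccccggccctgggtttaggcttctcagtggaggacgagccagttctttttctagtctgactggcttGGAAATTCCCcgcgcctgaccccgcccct
Nfkb2: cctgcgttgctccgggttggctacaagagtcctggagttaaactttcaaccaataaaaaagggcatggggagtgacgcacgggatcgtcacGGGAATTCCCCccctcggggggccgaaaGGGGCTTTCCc
Tnfaip3: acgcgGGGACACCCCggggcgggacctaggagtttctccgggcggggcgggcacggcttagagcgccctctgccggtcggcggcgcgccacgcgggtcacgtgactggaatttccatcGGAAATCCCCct
Nfkbie: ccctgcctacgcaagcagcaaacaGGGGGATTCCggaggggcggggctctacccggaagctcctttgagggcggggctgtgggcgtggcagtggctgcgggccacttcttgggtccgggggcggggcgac

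The Nfkbia stretch is chr12:55492648-55492777 on the minus strand, and its match begins 29 bases before the start site. The Nfkb2 stretch is chr19:46304607-46304736 on the plus strand, where matches begin at 39, 38 and 11 bases before the start and those at 39 and 38 overlap. Nfkb2 had 2 further windows with matches. These windows overlap and share a match site, which is counted in both. The Tnfaip3 stretch is chr10:19015411-19015540 on the minus strand, with matches 125 and 12 bases before the start. The Nfkbie stretch is chr17:45555570-45555699 on the plus strand, with 1 match near its upstream end. Bcl3 had a match just after its start site, and the windows of Rela and Birc3 held none, which says only that these letters are not in those windows. Nfkb1, Relb and Nfkbiz were not in the table of windows.

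In Sham hearts, Nfkbia was higher in ECs than in fibroblasts or cardiomyocytes, and Nfkb1 and Rela were lower in cardiomyocytes than in either of the others. For this comparison all 38 libraries were normalized together and fitted in 1 model (edgeR quasi-likelihood test, Benjamini-Hochberg adjusted p, here called FDR, below 0.05). The cell populations came in part from the same hearts, which the labels do not tie together, so the p-values treat the libraries as independent. Of the 10 members, 6 were higher in Sham ECs than in Sham cardiomyocytes, where 52.9% of all 12085 genes tested were called in either direction. Another 4 of 10 were higher in fibroblasts than in cardiomyocytes, against 47.3% of all genes, and 1 of 10 was higher in ECs than in fibroblasts, against 37.7%. The first share is near that of all genes and the other 2 are below it. No member was called lower in the first of these populations than in the second. The median difference of the members in log2 CPM was 1.19, 0.77 and -0.01 in these comparisons, and that of all genes was 0.04, 0.09 and -0.04.

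**Figure D1:**
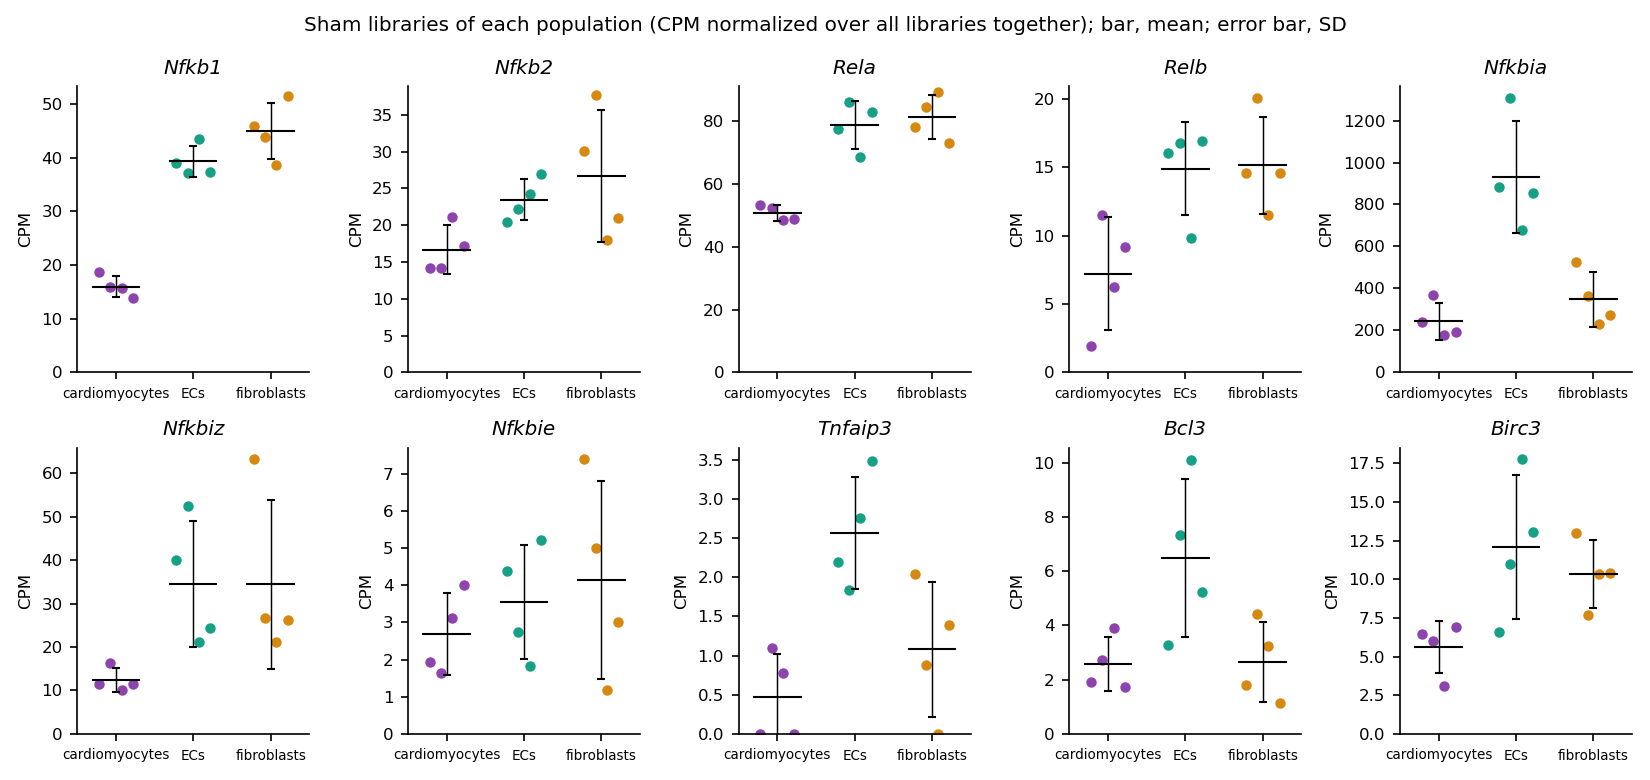
CPM of each member in the 4 Sham libraries of each population, normalized over all libraries together. Points are libraries, bars are means and error bars are SDs; every axis starts at 0. All 4 EC points of Nfkbia, from 678.2 to 1307 CPM, lie above all points of the other populations.

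Nfkb1 (ENSMUSG00000028163, GRCm39 chr3:135290264-135397742, minus strand) encodes p105, which is processed to the p50 subunit. It was at 18.6, 15.9, 15.6 and 13.8 CPM in the Sham cardiomyocytes, 39.1, 37.2, 43.5 and 37.4 CPM in ECs and 45.9, 43.9, 38.7 and 51.5 CPM in fibroblasts. Cardiomyocytes did not overlap with either, by 1.30 ± 0.24 log2 units below ECs (SE, FDR = 2.21e-05) and 1.49 ± 0.24 below fibroblasts (FDR = 2.47e-06). ECs and fibroblasts overlapped (difference -0.20 ± 0.22, FDR = 0.523).

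Rela (ENSMUSG00000024927, chr19:5687493-5698161, plus strand) encodes p65, the subunit that carries the transactivating domain of the classical dimer. Its order was the same, the Sham ranges being 48.5 to 53.4 CPM for cardiomyocytes, 68.7 to 86.0 CPM for ECs and 73.1 to 89.2 CPM for fibroblasts. It was 0.63 ± 0.18 log2 units higher in ECs (FDR = 0.00402) and 0.68 ± 0.18 higher in fibroblasts (FDR = 0.00246) than in cardiomyocytes. Relb (ENSMUSG00000002983, chr7:19339017-19363425, minus strand), a subunit of the alternative pathway, was 1.01 ± 0.35 higher in ECs (FDR = 0.0154) and 1.04 ± 0.35 higher in fibroblasts (FDR = 0.0134). The EC range of Relb, 9.81 to 16.9 CPM, overlapped with that of cardiomyocytes, 1.93 to 11.5 CPM, and without cardiomyocyte Sham replicate 1 the FDR was 0.0920 for ECs and 0.0837 for fibroblasts. Nfkb2 (ENSMUSG00000025225, chr19:46292759-46303812, plus strand), which encodes the precursor of p52, was at 14.1 to 21.1, 20.4 to 26.9 and 18.0 to 37.7 CPM in cardiomyocytes, ECs and fibroblasts, and no pair passed the test. Its 3′ end overlaps Psd on the opposite strand, and the sources used here do not state whether strand was used in counting.

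Nfkbia (ENSMUSG00000021025, chr12:55535332-55539432, minus strand) encodes IκBα, the inhibitor that leads the negative feedback of the pathway. Sham ECs held 884.4, 1307, 678.2 and 857 CPM. Fibroblasts held 526.7, 364.6, 229.2 and 275.5 CPM, and cardiomyocytes 238.5, 367.6, 175.9 and 192.4 CPM. The ECs lay above both without overlap, by 1.42 ± 0.32 log2 units over fibroblasts (FDR = 0.000489) and 1.93 ± 0.33 over cardiomyocytes (FDR = 6.04e-06). Fibroblasts and cardiomyocytes overlapped (0.52 ± 0.32, FDR = 0.186).

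Nfkbiz (ENSMUSG00000035356, chr16:55631738-55659262, minus strand) encodes IκBζ, a nuclear IκB protein that modulates NF-κB at selected promoters. Its Sham range was 10.2 to 16.4 CPM in cardiomyocytes, 21.2 to 52.5 CPM for ECs and 21.3 to 63.3 CPM for fibroblasts, and it differed from cardiomyocytes by 1.46 ± 0.41 (FDR = 0.00296) and 1.46 ± 0.41 (FDR = 0.00340) log2 units. Birc3 (ENSMUSG00000032000, chr9:7845790-7873229, minus strand) encodes cIAP2, a ubiquitin ligase of the TNF receptor complex. It was 1.08 ± 0.39 higher in ECs than in cardiomyocytes (FDR = 0.0191), with overlapping ranges of 6.57 to 17.8 and 3.13 to 6.89 CPM. Its FDR was 0.0688 without cardiomyocyte Sham replicate 3 and 0.0970 without EC Sham replicate 3.

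The other 3 members were scarce and no pair of Sham populations passed the test. Nfkbie (ENSMUSG00000023947, chr17:45866585-45874661, plus strand), which encodes IκBε, stood between 1.18 and 7.40 CPM in the 12 Sham libraries. Bcl3 (ENSMUSG00000053175, chr7:19541553-19557570, minus strand), a nuclear IκB protein that partners p50 and p52 dimers, stood between 1.15 and 10.1 CPM, with its highest 3 values in ECs. Tnfaip3 (ENSMUSG00000019850, chr10:18874201-18891405, minus strand), which encodes the ubiquitin-editing enzyme A20, stood between 0 and 3.48 CPM. The 4 EC libraries of Tnfaip3 lay above every cardiomyocyte library (2.32 ± 1.07, FDR = 0.0650), at levels near the 3 counts that a count of 0 allows.

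With a term for the order of the sample sheet, which falls into 4 runs of library numbers, 3 of the 6 EC calls and 2 of the 4 fibroblast calls against cardiomyocytes remained. Nfkb1 remained in both, with Rela and Nfkbia in ECs and Nfkbiz in fibroblasts. All Sham cardiomyocyte libraries stood in 1 of these runs, which held no Sham EC library. Under the same term the Nfkbia difference between ECs and fibroblasts was 1.04 log2 units with an FDR of 0.0895.

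In ECs, ischemia and reperfusion went with a higher level of Nfkbia and Birc3. The comparison of Control-AMI with Sham within ECs called 2 of 10 members, both higher, against 6.56% of all 10438 genes tested in either direction. The median log2 fold change of the 10 members was 0.84, with 9 of 10 above 0, and that of all genes was -0.02. Within a population, CPM are normalized over its own libraries and are not on the scale used for the Sham comparison.

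**Figure D2:**
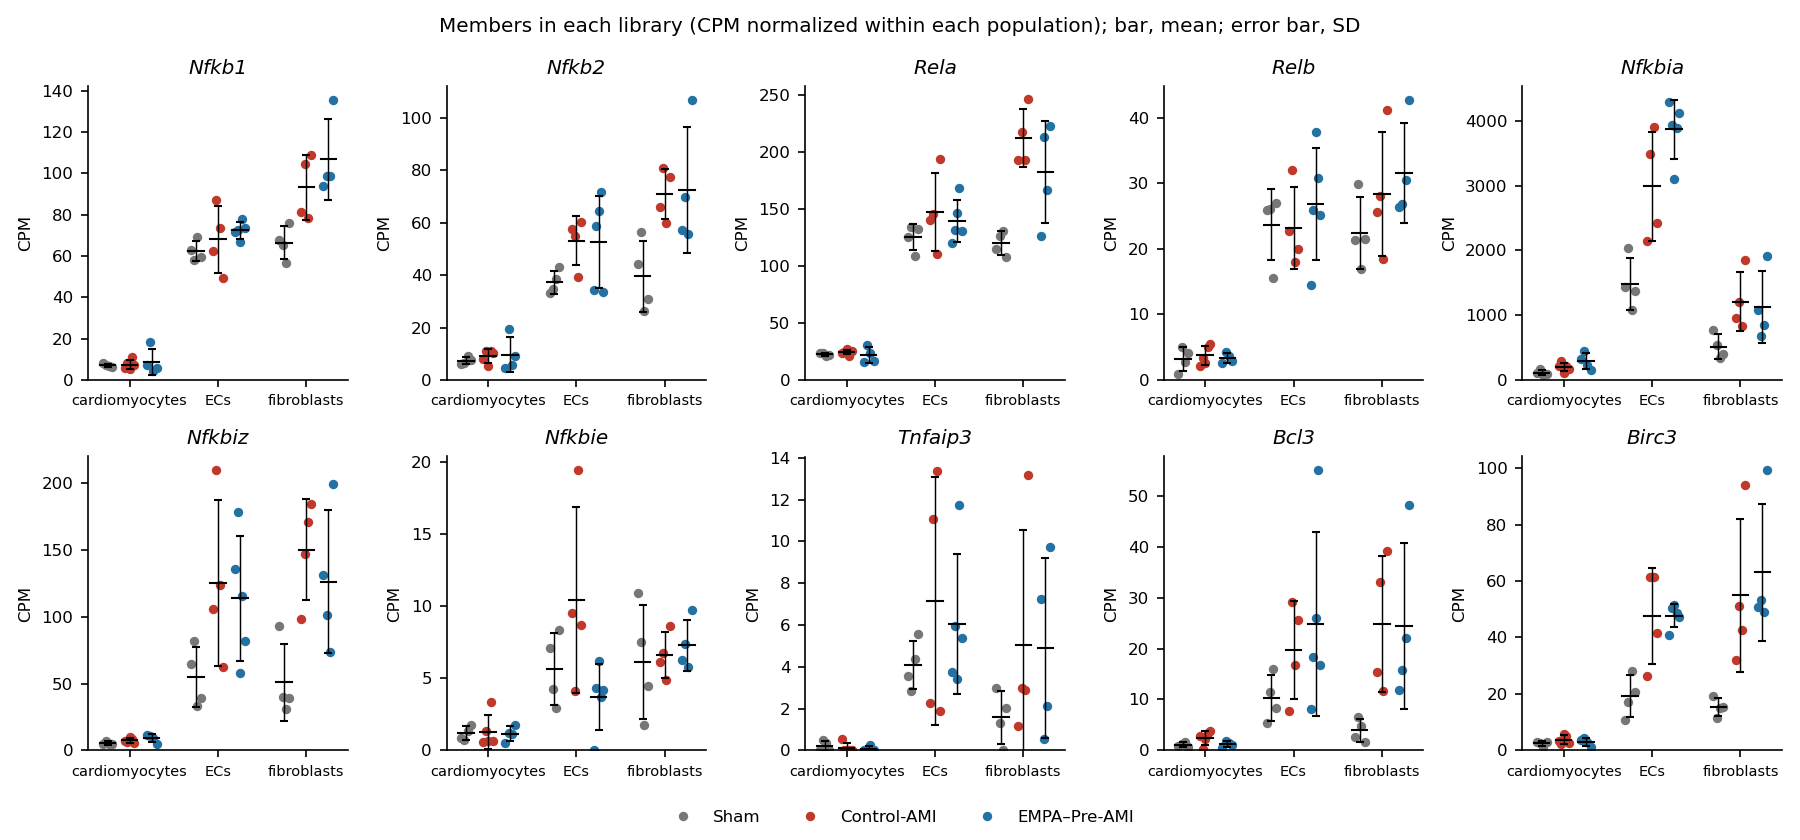
CPM of each member in every library, normalized within each population, by population and group. Points are libraries, bars are means and error bars are SDs; every axis starts at 0. In ECs, Nfkbia lies between 1077 and 2037 CPM in Sham and between 2145 and 4299 CPM in the other groups.

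Nfkbia was at 1429, 2037, 1077 and 1369 CPM in Sham ECs and 2145, 3491, 3905 and 2432 CPM in Control-AMI ECs. All 4 Control-AMI libraries lay above all 4 Sham libraries. The mean was 1478 ± 403 CPM (SD, n = 4) against 2993 ± 839 CPM (SD, n = 4), a log2 fold change of 1.02 ± 0.20 (SE, edgeR FDR = 0.00366). Such a separation upwards was seen for 5.78% of all genes tested, and Nfkbia was the member that showed it.

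Birc3 was at 10.6, 17.1, 28.2 and 20.8 CPM in Sham and 26.3, 61.3, 61.5 and 41.7 CPM in Control-AMI. The lowest Control-AMI library lay just under the highest Sham library, and the others lay above. The log2 fold change was 1.29 ± 0.28 (edgeR FDR = 0.00646). Both calls held without any single EC library, with log2 fold changes of 0.85 to 1.22 for Nfkbia and 1.10 to 1.57 for Birc3. Both also held with the sample-sheet term.

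The other 8 members did not pass in ECs. Nfkbiz was at 64.9, 81.8, 33.6 and 38.9 CPM in Sham and 105.7, 209.5, 123.6 and 62.3 CPM in Control-AMI (1.19 ± 0.43, FDR = 0.143), and 3 of the 4 Control-AMI libraries lay above Sham. DESeq2 called Nfkbiz in this comparison. Nfkb2 was at 37.3 ± 4.44 and 53.1 ± 9.37 CPM (0.51 ± 0.24, FDR = 0.236). Rela gave 0.24 ± 0.17 (95% interval -0.11 to 0.59) and Relb -0.02 ± 0.29 (-0.62 to 0.57). Nfkb1 gave 0.12 ± 0.18 (-0.25 to 0.49). Bcl3, Nfkbie and Tnfaip3, at means below 20 CPM, gave 0.91, 0.89 and 0.79 with SEs of 0.54, 0.59 and 0.60.

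Markers of other cell types differed between these same EC groups. The fibroblast marker sum was 391.7 to 1024 CPM in Sham and 1364 to 4938 CPM in Control-AMI, and the endothelial sum was 7964 to 9100 CPM against 4275 to 5937 CPM. The sum of 10 leukocyte genes was 6.44 to 22.99 CPM in Sham and 23.6 to 458.1 CPM in Control-AMI, the highest being replicate 3. Of the 10 leukocyte genes, 4 to 8 had a count in a given Sham library and 9 to 10 in a Control-AMI library. The methods name an antibody to CD45.1 for the sort, an allele that C57BL/6 mice do not carry. Control-AMI replicates 1 and 4 had the highest fibroblast sums. Without them the log2 fold change was 1.33 for Nfkbia (edgeR FDR = 0.000758) and 1.68 for Birc3 (FDR = 0.00196). The 2 Control-AMI libraries then left had fibroblast sums of 1364 and 1471 CPM, still above every Sham library. Without replicate 3 both stayed called, and the leukocyte sums left, 23.6 to 39.25 CPM, still lay above Sham. These refits do not remove the marker differences, whose part in the calls was not tested.

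**Figure D3:**
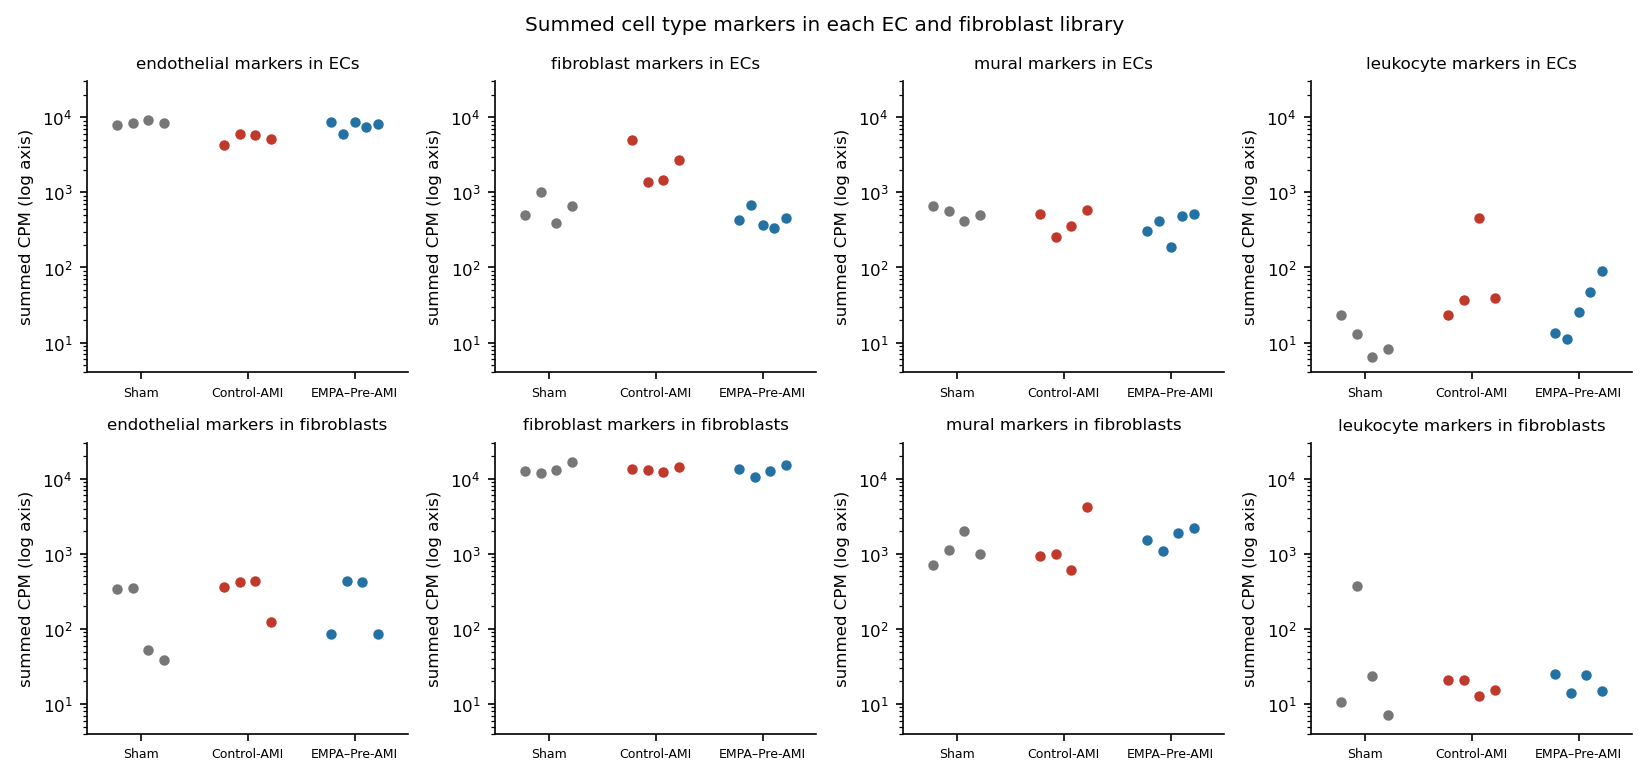
Summed CPM of endothelial, fibroblast, mural and leukocyte marker genes in each EC and fibroblast library, normalized over all libraries together, on a shared log axis, by group. In ECs the 4 Control-AMI points for fibroblast markers, 1364 to 4938 CPM, lie above all others; in fibroblasts 1 Sham library stands apart for leukocyte markers at 368.7 CPM and 1 Control-AMI library for mural markers at 4219 CPM.

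In fibroblasts the same comparison called 4 members, all higher in Control-AMI: the subunit Rela, the nuclear IκB proteins Nfkbiz and Bcl3, and Birc3. Of the 10 members 9 passed the filter on low counts, all but Tnfaip3, and 4.16% of all 10691 genes tested were called in either direction. Bcl3 passed the filter through the groups where it was high, so its call is given as a description, and 3 calls are left without it. In 7 of the 10 members, or 6 without Bcl3, every Control-AMI library lay above every Sham library, a separation that 6.63% of all genes tested showed.

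Rela was at 115.2, 126.2, 131 and 108.3 CPM in Sham fibroblasts and 193.2, 218.1, 192.8 and 246.5 CPM in Control-AMI. The groups were far apart for the spread within them, with a log2 fold change of 0.82 ± 0.18 (edgeR FDR = 0.0178). Without Sham replicate 4 the FDR was 0.0572 at a log2 fold change of 0.78.

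Nfkbiz was at 93.1, 40.03, 31.2 and 38.9 CPM in Sham and 98.5, 147.2, 170.5 and 184 CPM in Control-AMI. The log2 fold change was 1.56 ± 0.36 (edgeR FDR = 0.0255). Sham replicate 1 stood high among its group and close to the lowest Control-AMI library. The call was lost without any 1 of Sham replicates 2, 3 and 4 or Control-AMI replicates 2, 3 and 4, with FDR from 0.0575 to 0.0909, and with the sample-sheet term (FDR = 0.0849) or with no filter (FDR = 0.0586).

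Bcl3 was at 2.63, 6.60, 4.77 and 1.71 CPM in Sham and 15.3, 33.03, 11.6 and 39.1 CPM in Control-AMI. It had 5 to 15 counts in a Sham library and 24 to 95 in a Control-AMI library, and the fitted log2 fold change was 2.68 ± 0.54 (edgeR FDR = 0.0106). Birc3 was at 19.1, 11.4, 15.2 and 15.4 CPM in Sham and 32.2, 51.1, 42.6 and 93.8 CPM in Control-AMI, a log2 fold change of 1.84 ± 0.33 (edgeR FDR = 0.00439). Both calls held without any single fibroblast library. Of the 4 Sham libraries 3 stood in the first run of the sample sheet and 3 of the 4 Control-AMI libraries in the last, and with the sample-sheet term Rela, Bcl3 and Birc3 stayed called.

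A further 3 members separated the groups without passing the test. Nfkbia was at 775.2, 544.6, 336.5 and 407.8 CPM in Sham and 951, 1204, 839.1 and 1851 CPM in Control-AMI (1.23 ± 0.35, FDR = 0.0646). Nfkb2 was at 44.3, 56.3, 26.5 and 31.1 CPM against 65.9, 80.7, 60.1 and 77.4 CPM (0.85 ± 0.26, FDR = 0.0741). Nfkb1 was at 67.6, 65.5, 56.8 and 76.2 CPM against 81.3, 104.7, 78.5 and 108.7 CPM (0.49 ± 0.18, FDR = 0.150). DESeq2 called Nfkbia and Nfkb2. The remaining tested members overlapped, with 0.34 ± 0.27 for Relb (95% interval -0.23 to 0.91) and 0.10 ± 0.46 for Nfkbie (-0.87 to 1.08). Tnfaip3, not tested, was at 3.00, 1.32, 0 and 2.05 CPM in Sham and 1.15, 3.00, 2.91 and 13.2 CPM in Control-AMI.

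Control-AMI replicate 4 of the fibroblasts, which had the highest value of 9 of the 10 members within its group, also had a mural marker sum of 4219 CPM against 608.1 to 1010 CPM in the other Control-AMI libraries. Sham replicate 2 had a leukocyte sum of 368.7 CPM against 7.15 to 23.3 CPM in the other Sham libraries. The fibroblast sum itself was 11856 to 16828 CPM in Sham and 12274 to 14169 CPM in Control-AMI. Without both libraries, 2 members stayed called, Bcl3 (2.74, FDR = 0.0304) and Birc3 (1.34, FDR = 0.0319), while Rela gave 0.77 (FDR = 0.0822) and Nfkbiz 1.35 (FDR = 0.148).

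In cardiomyocytes no member was called between Control-AMI and Sham by edgeR or by DESeq2, and 1 of the 7 tested had an unadjusted p under 0.05. Few genes passed at all, 0.0655% of 9167, and every member's ranges overlapped, where 1.34% of all genes had every Control-AMI library above every Sham library. The share of all genes with an unadjusted p under 0.05 was not counted, here or below, so such counts have no background beside them. The member with the small p was Nfkbia, at 104.5, 163.1, 76.9 and 85.2 CPM in Sham and 221.2, 293, 108.1, 208.3 and 164.3 CPM in Control-AMI. It lay above the Sham range in 4 of 5 libraries (0.89 ± 0.31, 95% interval 0.23 to 1.55, edgeR FDR = 1.00). All 7 estimates were above 0, from 0.08 for Nfkb1 to 0.89, with a median of 0.32 beside 0.01 over all genes. The intervals were wide: -0.66 to 0.82 for Nfkb1, -0.41 to 1.05 for Nfkb2, -0.30 to 0.54 for Rela and -0.71 to 1.11 for Relb. Those of Nfkbiz and Birc3 ran from -0.16 to 1.09 and from -0.29 to 1.49. Nfkbie, Bcl3 and Tnfaip3 fell under the filter, with group means of 1.15 to 1.31, 1.13 to 2.52 and 0.0707 to 0.207 CPM.

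**Figure D4:**
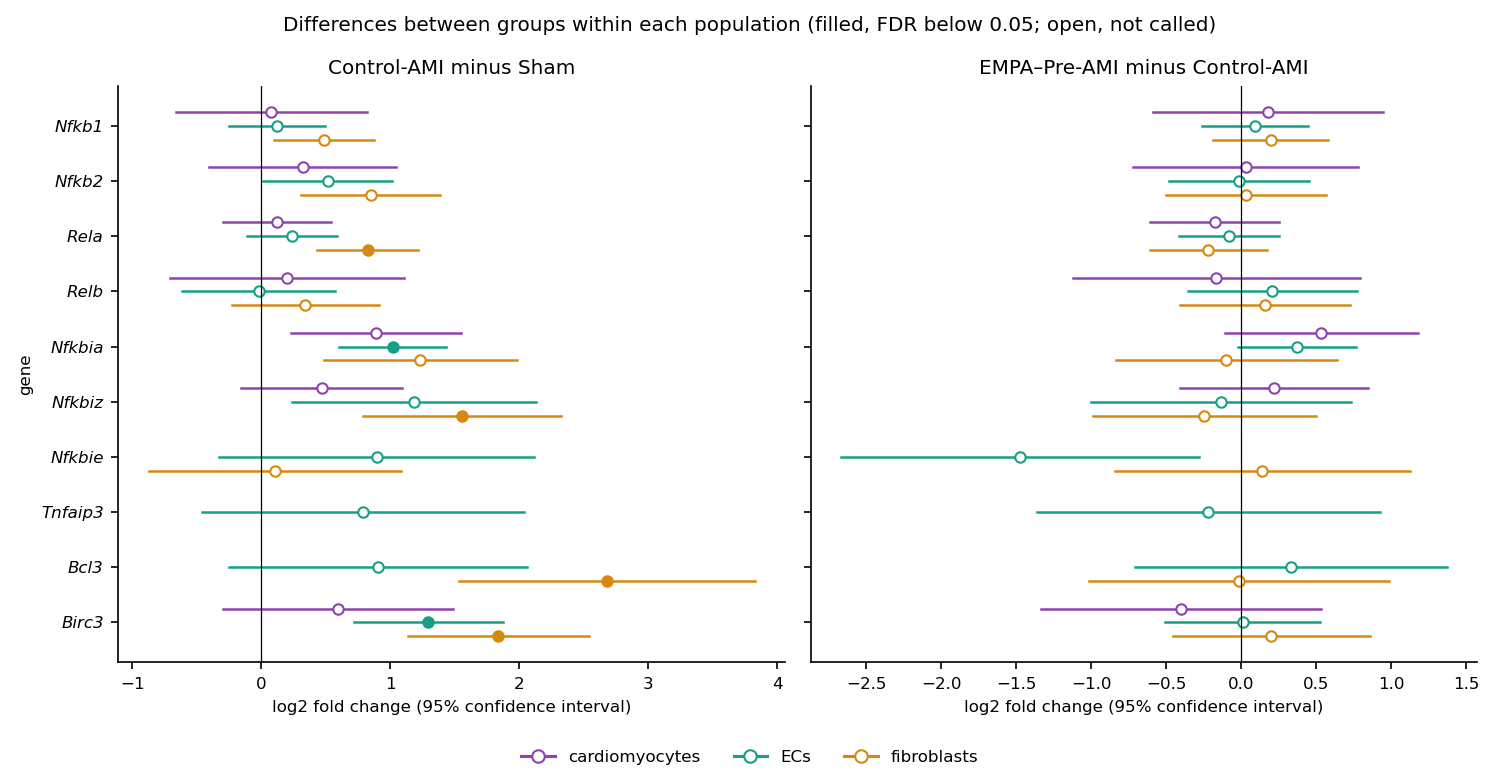
Log2 fold change of each tested member with its 95% interval in cardiomyocytes, ECs and fibroblasts, for Control-AMI minus Sham on the left and EMPA–Pre-AMI minus Control-AMI on the right. Filled points passed an FDR of 0.05: 2 in ECs and 4 in fibroblasts on the left, and none on the right.

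That a member passed in 1 population and not in another does not show that the populations differ, so the difference of the effects was tested in the model over all 38 libraries. For Control-AMI against Sham, edgeR called none of the 10 members between ECs and cardiomyocytes, fibroblasts and cardiomyocytes, or ECs and fibroblasts, where 1.51%, 0.331% and 3.22% of all genes were called, and DESeq2 called none. At an unadjusted p under 0.05 there were 0, 2 and 2 members. The smallest p belonged to Rela, whose effect was larger in fibroblasts than in cardiomyocytes (95% interval of the difference 0.22 to 1.24, edgeR FDR = 0.301) and than in ECs (ECs minus fibroblasts, -1.08 to -0.07, FDR = 0.279). For Bcl3 the effect in ECs was below that in fibroblasts (interval -3.25 to -0.27, FDR = 0.257), and for Birc3 the effect in fibroblasts was above that in cardiomyocytes (0.21 to 2.33, FDR = 0.463). Nfkbia differed in none of them at that level, with an interval of -0.51 to 1.27 between fibroblasts and cardiomyocytes.

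Pretreatment with empagliflozin was not followed by a detectable difference in any member. Between EMPA–Pre-AMI and Control-AMI the count of called members was 0 in cardiomyocytes, ECs and fibroblasts, by edgeR and by DESeq2, where 0.0218%, 2.63% and 0% of all genes were called. At an unadjusted p under 0.05 there were 0, 1 and 0 members. The median log2 fold change of the tested members was 0.03, 0.00 and 0.03.

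In ECs Nfkbia was at 4299, 3942, 3110, 3895 and 4119 CPM in EMPA–Pre-AMI, and 3 of the 5 libraries lay above the highest Control-AMI library, 3905 CPM. The mean was 3873 ± 456 CPM (SD, n = 5), a log2 fold change of 0.37 ± 0.19 over Control-AMI (95% interval -0.02 to 0.77, edgeR FDR = 0.446). Birc3 was at 40.9, 50.3, 51.5, 48.8 and 47.3 CPM, within the Control-AMI range, with a difference of 0.01 ± 0.25 (-0.51 to 0.53). Nfkbie was the member with the small unadjusted p, at 0, 4.33, 6.22, 3.71 and 4.19 CPM against 9.52, 4.09, 19.4 and 8.72 CPM in Control-AMI (-1.48 ± 0.58, FDR = 0.244). The intervals of the other 7 reached at most from -1.36 for Tnfaip3 to 1.37 for Bcl3, and those of the 4 subunits from -0.48 to 0.77. The fibroblast marker sum of the same ECs was 338.9 to 684.1 CPM in EMPA–Pre-AMI against 1364 to 4938 CPM in Control-AMI, and its part in these values was not tested.

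In fibroblasts the 9 tested members differed by -0.25 to 0.20 log2 units between EMPA–Pre-AMI and Control-AMI. Nfkbia was at 1077, 675.3, 842.7 and 1922 CPM (-0.10 ± 0.34, 95% interval -0.84 to 0.64) and Bcl3 at 11.9, 15.8, 22.1 and 48.1 CPM (-0.02 ± 0.47, -1.02 to 0.98). Rela was at 126.6, 213.7, 167.1 and 223.2 CPM (-0.22 ± 0.18, -0.61 to 0.17). The Birc3 interval ran from -0.46 to 0.86 and that of Nfkbiz from -0.99 to 0.50. In cardiomyocytes Nfkbia was at 317.1, 445.8, 237.4 and 153.4 CPM (0.53 ± 0.31, -0.11 to 1.18, FDR = 0.290). The other cardiomyocyte members spanned -0.40 for Birc3 to 0.22 for Nfkbiz. For this effect too edgeR called no member in the difference between ECs and cardiomyocytes, fibroblasts and cardiomyocytes, or ECs and fibroblasts, against 0.993%, 0.00827% and 2.04% of all genes. The counts at an unadjusted p under 0.05 were 0, 0 and 1, the latter Nfkbie, and DESeq2 called none.

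EMPA–Pre-AMI was also set against Sham. This comparison uses the Sham libraries of the first comparison again, so its values are given beside those and not as separate evidence. In ECs it called 2 of 10 members against 2.71% of all genes, Nfkbia (1.39 ± 0.20, edgeR FDR = 0.000167) and Birc3 (1.30 ± 0.27, FDR = 0.00675). Nfkbia was at 3110 to 4299 CPM in EMPA–Pre-AMI against 1077 to 2037 CPM in Sham, and Birc3 at 40.9 to 51.5 CPM against 10.6 to 28.2 CPM. Here the fibroblast marker sums of the compared groups overlapped, 338.9 to 684.1 CPM against 391.7 to 1024 CPM. The leukocyte sum was 11.2 to 90.5 CPM against 6.44 to 22.99 CPM and the endothelial sum 5971 to 8697 CPM against 7964 to 9100 CPM, and their part in these calls was not tested. In fibroblasts it called 4 of the 9 tested, against 5.11% of all genes: Nfkb1 (0.68 ± 0.18, FDR = 0.0410), Nfkbiz (1.31 ± 0.36, FDR = 0.0496), Bcl3 (2.66 ± 0.54, FDR = 0.0106) and Birc3 (2.04 ± 0.33, FDR = 0.00216). The filter applies to Bcl3 here as above, which leaves 3 calls without it.

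The fibroblast calls of Bcl3 and Birc3 held without any single library, whereas those of Nfkb1 and Nfkbiz were lost in 10 and 9 of the 12 refits that each left out 1 library. Rela was at 0.60 ± 0.18 (FDR = 0.0698), Nfkb2 at 0.88 ± 0.26 (FDR = 0.0587) and Nfkbia at 1.13 ± 0.35 (FDR = 0.0787), and DESeq2 called these 3. In cardiomyocytes no member was called by edgeR, where 0.338% of all genes were, and 2 had an unadjusted p under 0.05. Nfkbia was at a mean of 288.4 ± 124 CPM against 107.4 ± 38.9 CPM in Sham (1.42 ± 0.33, FDR = 0.0846), with only its lowest library inside the Sham range. DESeq2 called it, as did the fit with no filter and the fits without Control-AMI replicate 3 or EMPA–Pre-AMI replicate 4. The leukocyte marker sum of cardiomyocytes was 47.7 to 106.7 CPM in Sham and 63.01 to 443.9 CPM in EMPA–Pre-AMI. Their endothelial sum was 1263 to 1793 CPM in Sham and 1083 to 2479 CPM in EMPA–Pre-AMI. EMPA–Pre-AMI replicate 2 had the highest leukocyte sum, the highest endothelial sum and the highest Nfkbia. In every cardiomyocyte group, Control-AMI included, the library with the highest endothelial sum had the highest Nfkbia. The part of either marker list in these values was not tested.

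Around the members, the rest of the pathway was described from lists of 16 receptors and adaptors, 10 kinases, 12 other subunits and inhibitors and 23 target genes. In ECs, Control-AMI against Sham, 2 of 15 tested receptor and adaptor genes, 1 of 8 kinases, 0 of 10 other subunits and inhibitors and 4 of 18 targets were higher, and none was lower, where 6.56% of all genes were called in either direction. The median log2 fold changes were 0.11, 0.17, 0.14 and 0.98. Il6, which encodes an inflammatory cytokine, had 0 counts in all 4 Sham libraries and 5.44 to 25.7 CPM in Control-AMI, at least 33.5-fold higher taking 3 counts over the Sham group as the floor. With Il6 set to that bound the target median stayed at 0.98. Tnfaip2 rose by 1.496 ± 0.24 (edgeR FDR = 0.000860) and Il1r1, the interleukin-1 receptor, by 0.98 ± 0.18 (FDR = 0.00264). Bcl2l1, which encodes the survival protein Bcl-xL, rose by 0.97 ± 0.19 (FDR = 0.00346). Map3k14, the kinase NIK of the alternative pathway, rose by 1.15 ± 0.27 (FDR = 0.0112), and Cxcl10, a chemokine, by 2.97 ± 0.71 (FDR = 0.0129). The other called gene, chosen with its value in view, was the adaptor kinase Ripk1 (0.64 ± 0.18, FDR = 0.0372). Il6 and Cxcl10, with at most 3 counts in a Sham library, passed the filter on low counts through the groups where they were high. They are among the 4 targets counted above, and their calls are given as a description. As given above, the fibroblast and leukocyte marker sums were higher and the endothelial sum lower in Control-AMI ECs than in Sham ECs. The part of these marker differences in the calls of the list genes was not tested.

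In fibroblasts the counts for the same comparison were 2 higher of 15, 1 lower of 10, 2 higher of 9 and 5 higher of 18, where 4.16% of all genes were called, with medians of -0.02, -0.07, 0.52 and 1.12. Bcl2l1 rose by 1.63 ± 0.22 (edgeR FDR = 0.000431) and Gadd45b, a stress-induced gene, by 1.92 ± 0.35 (FDR = 0.00472). Sele, the endothelial adhesion molecule E-selectin, went from 0 to 2.05 CPM in Sham to 8.72 to 47.3 CPM in Control-AMI (4.08 ± 0.70, FDR = 0.00415), where endothelial marker sums were 38.8 to 350.8 and 122.3 to 429.6 CPM. Il6 went from 2.61 ± 1.82 to 62.4 ± 40.01 CPM (4.53 ± 0.76, FDR = 0.00691). Sele and Il6, with at most 6 and 10 counts in a Sham library, passed the filter through the groups where they were high. They are among the 5 targets counted, and their calls are given as a description. Ripk1 rose by 1.05 ± 0.24 (FDR = 0.0190) and Il1r1 by 1.31 ± 0.31 (FDR = 0.0252). Outside the rule for naming genes, and so chosen with their values in view, Tnfaip2, Rel and Birc2 also rose and Tab1 fell by 1.67 on the log2 scale at a mean of 2.65 CPM against 8.54 CPM. Tab1, the gene counted as lower, passed the filter through Sham, where it was high, so its call too is a description.

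In cardiomyocytes none of these genes was called by edgeR between Control-AMI and Sham, at target and receptor medians of 0.52 and 0.15. At an unadjusted p under 0.05 there were 5 of 13 targets and 1 gene of the other lists. The share of all genes at that level was not counted, so these counts cannot be set against it. Against Sham, EMPA–Pre-AMI cardiomyocytes had 2 of 13 targets higher, Gadd45b (1.85 ± 0.32, edgeR FDR = 0.00771) and Bcl2l1 (1.62 ± 0.33, FDR = 0.0333). None of 8 receptors and adaptors, 8 kinases and 9 other subunits and inhibitors was called there, and 0.338% of all genes were.

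Between EMPA–Pre-AMI and Control-AMI, 1 list gene was called in the 3 populations, 1 of the 18 targets tested in ECs. Of all genes, 0.0218%, 2.63% and 0% were called in cardiomyocytes, ECs and fibroblasts. Tnfaip2 in ECs was at 43.1 to 89.8 CPM with empagliflozin and 79.5 to 114.3 CPM in Control-AMI (-0.88 ± 0.22, edgeR FDR = 0.0301). Its level in Control-AMI fibroblasts, on the scale of that population, was 408.2 to 839.2 CPM. The fibroblast marker sum of the ECs moved in the same direction between these groups, and its part in the result was not tested. Against Sham, EMPA–Pre-AMI ECs had 1 of 15 receptors and adaptors and 3 of 18 targets higher, where 2.71% of all genes were called. None of 8 kinases and 10 other subunits and inhibitors was called. The 4 list genes were Bcl2l1 (1.36 ± 0.18, edgeR FDR = 0.000136), Il6, Il1r1 (0.95 ± 0.17, FDR = 0.00232) and Cxcl10 (2.64 ± 0.70, FDR = 0.0411). EMPA–Pre-AMI fibroblasts had 10 higher and 1 lower, where 5.11% of all genes were called. Those higher were 2 of 15 receptors and adaptors, 2 of 9 other subunits and inhibitors and 6 of 18 targets. The lower gene was 1 of 10 kinases. Bcl2l1, Sele, Rel, Il1r1 and Gadd45b led those that rose, with log2 fold changes of 1.59, 4.19, 1.43, 1.66 and 1.85, and Ikbke, an IκB kinase-related gene, fell by 2.34 from 12.6 ± 1.48 to 2.44 ± 1.42 CPM (FDR = 0.00544). Il6, Ripk1, Birc2, Tnfaip2 and Icam1, chosen with their values in view, were the other 5 that rose. The filter applies as above to Il6 and Cxcl10 in ECs and to Sele and Il6 in fibroblasts, so these calls too are a description. Ikbke passed the filter with its higher values in Sham, so its fall is also given as a description.

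Across the libraries of a population, the members followed Nfkbia to different degrees. The values are Pearson r of log2 CPM over libraries that include the groups above, given as a description. In the 12 fibroblast libraries the other 8 tested members had r of 0.68 for Nfkbie to 0.91 for Nfkbiz, with 0.88 for Nfkb2 and 0.87 for Birc3. In the 13 EC libraries Birc3 and Nfkbiz had 0.79 and 0.78, while Rela had 0.19, Relb 0.13 and Nfkbie -0.20. In the 13 cardiomyocyte libraries Nfkbiz had 0.69 and the others 0.13 to 0.47. The genes outside the members and lists with the highest r were Cdkn1a (0.95), Mgat4a (0.95) and Pim3 (0.95) in ECs, Fbxo33 (0.96), Kdm6b (0.94) and Pim3 (0.94) in fibroblasts, and Adamts1 (0.95), S1pr1 (0.94) and Picalm (0.93) in cardiomyocytes. Pim3 stood among the 3 leading genes in both ECs and fibroblasts.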

How the data were processed

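QuantSeq 3′ mRNA libraries were sequenced from 38 samples. The authors trimmed reads with cutadapt 2.8, quantified them with Salmon on GRCm39, and deposited estimated counts per gene, unnormalized, for 35682 genes, with 4.55% of cells not whole numbers; these expected counts were rounded here. A 3′ tag library gives about 1 tag per transcript, so CPM of different genes were not scaled by length. Groups came from the sample labels. Within each population, edgeR 4.0.16 (R 4.3.3) was fitted to the 3 groups (filterByExpr with a minimum count of 10, TMM factors, robust quasi-likelihood test), with Benjamini-Hochberg adjustment over all genes tested and a threshold of 0.05. Populations were compared in 1 model of all 38 libraries. Nothing in the labels says which libraries share hearts, and p-values measure the spread between libraries. Alternatives were DESeq2 1.42.0, RLE factors, other filters, no robust estimation, a sample-sheet term, a replicate block, fewer groups and leaving out libraries. The tests were tested on simulated data. Members, lists and tests were chosen with earlier results of these data known. The 10 members were named in each comparison, with up to 6 called list genes by smallest p, and the 3 genes most correlated with Nfkbia. No 2 libraries of a group agreed within counting error. Depth in ECs set 3 counts at 1.37 to 2.22 CPM.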

Additional observations from a re-analysis of the deposited data

Results flagged for a closer look

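Of 78 combinations of a member and a group of 4 or 5 libraries, 4 had a library far from the others by Dixon's gap ratio on log2 CPM, and chance flags about 1 in 20. Nfkb1 in fibroblasts was at 135.7 CPM in EMPA–Pre-AMI replicate 4 and 93.9 to 99.0 CPM in the other 3 libraries (gap ratio 0.859). Birc3 in the same library was at 99.2 CPM against 49.01 to 53.2 CPM (gap ratio 0.885). Without that library the log2 fold change of EMPA–Pre-AMI over Sham was 0.55 for Nfkb1, which then was not called (edgeR FDR = 0.121), and 1.73 for Birc3, which stayed called. Relb in ECs was at 15.6 CPM in Sham replicate 3 and 26.0 to 27.1 CPM in the others (gap ratio 0.923). Nfkbie in ECs had 0 counts in EMPA–Pre-AMI replicate 1, which allows up to 1.55 CPM by counting error alone, and 3.71 to 6.22 CPM in the others (gap ratio 0.777).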

How the results depend on the processing

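Among the 18 comparisons, the count of called members kept within 1.5 times its value under every alternative in 12: the 3 of ECs, the 2 of Control-AMI with Sham and with EMPA–Pre-AMI in cardiomyocytes, EMPA–Pre-AMI against Control-AMI in fibroblasts, and the 6 differences of effects. All 749 refits of the 23 called log2 fold changes kept their direction and 701 kept the call. For EMPA–Pre-AMI against Sham in cardiomyocytes, DESeq2, no filter and the replicate block called 1 member instead of 0, and leaving out a library gave 0 to 1. For Control-AMI against Sham in fibroblasts, leaving out a library gave 2 to 6 in place of 4, and leaving out the libraries highest in leukocyte and mural markers, chosen after seeing the data, gave 2. For EMPA–Pre-AMI against Sham in fibroblasts, DESeq2 called 7 in place of 4, a fit of only the 2 groups called 2, and leaving out a library gave 2 to 4. The sample-sheet term lowered the Sham calls from 6 to 3 in ECs and from 4 to 2 in fibroblasts against cardiomyocytes. For Sham ECs against Sham fibroblasts, DESeq2 and a fit of only the 12 Sham libraries called 2 in place of 1, adding Bcl3, and leaving out a library gave 1 to 2. The cause of these shifts was not tested.

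Libraries of the same replicate number in different groups correlated at -0.11 to 0.48 over genes. The medians were 0.01, 0.04 and 0.10 in cardiomyocytes, ECs and fibroblasts, and -0.025, -0.008 and -0.010 for libraries of different numbers. These low values do not settle whether the numbers pair libraries. In ECs the replicate block called 3 members in place of 2, adding Nfkbiz, both for Control-AMI and for EMPA–Pre-AMI against Sham. In fibroblasts it called 6 in place of 4 for Control-AMI against Sham, adding Nfkb2 and Nfkbia, and 5 in place of 4 for EMPA–Pre-AMI against Sham, adding the same pair and losing Nfkbiz (1.30, FDR = 0.0610). Apart from these and Nfkbia in cardiomyocytes, the block changed no call of a member; it was not fitted to the comparisons among Sham populations. Depth limits the scarce members: the 3 counts that a count of 0 allows came to 0.665 to 1.48 CPM per library in cardiomyocytes, 1.37 to 2.22 CPM in ECs and 1.06 to 1.54 CPM in fibroblasts.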
